A study of Mus musculus with 15 samples.

Results

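H3K4me3-marked open chromatin without H3K27ac was examined in eosinophils grown from mouse bone marrow. An open region was a stretch with an ATAC-seq peak in both BALB/c libraries, after peaks sharing at least 1 bp had been joined. A region was taken when it overlapped an H3K4me3 region found in both BALB/c libraries and no H3K27ac region found in both. Of 27402 open regions, 3290 (12.01%) met this rule, and they made up 22.2% of the 14821 open regions with H3K4me3. They are called the H3K27ac-lacking regions below, which says only that no reproducible BALB/c H3K27ac region touched them. For comparison, 11531 open regions carried both H3K4me3 and H3K27ac (the acetylated regions), and 6922 carried none of H3K4me3, H3K27ac and H3K4me1 in both libraries (the unmarked regions). Over all 27402 open regions, a reproducible H3K4me3 region touched 54.1% and a reproducible H3K27ac region 55.6%.

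Trimethylation of histone H3 at lysine 4 (H3K4me3) gathers at the start sites of genes, and it can be present where a gene is transcribed little. Acetylation of lysine 27 (H3K27ac) is laid down by CBP and p300 and accompanies active promoters and enhancers, while monomethylation of lysine 4 (H3K4me1) is typical of enhancers. PU.1 is an ETS-family transcription factor that binds promoters and enhancers throughout the myeloid lineage, to which eosinophils, neutrophils and macrophages belong. Open sites with H3K4me3 and no H3K27ac can therefore be compared between related cells for where acetylation and PU.1 are found.

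All 15 libraries came from unselected bone marrow progenitors cultured for 14 days, with stem cell factor and FLT3 ligand (100 ng/mL each) on days 0 to 3 and interleukin 5 (10 ng/mL) on days 4 to 14. BALB/c cells gave 2 libraries each for ATAC, H3K27ac, H3K4me3, H3K4me1 and RNA, and 1 for PU.1. Mice titled C57, with the strain label BL6/57, gave 2 libraries each for ATAC and H3K27ac. The labels name no separate cultures or animals for the libraries, so the spread between libraries may be technical. H3K27ac and PU.1 lists named Neut, mBMDM and ImmGran, with 1 list per assay, came with the series. Their names are the only description in the sources used here, so they have no replicates and their cells and treatments are not spelled out.

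How deeply the peak libraries were sequenced is unknown. The BALB/c lists held 33919 and 33949 ATAC peaks, 19085 and 19625 H3K4me3 peaks, 20467 and 23203 H3K27ac peaks, and 62236 PU.1 peaks. In the RNA tables, with 40306679 and 30465490 counts, all 8 eosinophil markers reached at least 1 CPM (read counts scaled to the library total) in both libraries, with summed levels of 13094 and 13355 CPM. Markers of other cells were present: 6 of 6 for neutrophils (674 and 640 CPM summed), 4 of 5 for macrophages and monocytes (2129 and 2317 CPM, Marco at 0), 4 of 5 for stromal and endothelial cells (2006 and 615 CPM), 2 of 4 for mast cells and basophils (54.5 and 27.1 CPM) and 2 of 4 for lymphoid cells (5.41 and 4.04 CPM). A weak mark in all cells and a strong mark in a few cells cannot be told apart in such bulk libraries, and the part of the other cells in the results was not tested.

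The H3K27ac-lacking regions lay between the comparison classes in width and ATAC score. They were chosen from ATAC and H3K4me3 peaks, so these values are a description and carry no test. Their median width was 585.5 bp (quartiles 429 and 769 bp), against 853 bp for the acetylated and 341 bp for the unmarked regions, and the range ran from 214 to 4658 bp. The deposited score is 10 times the −log10 q value that the authors' peak caller gave. The median ATAC score was 40 in library 1 and 38 in library 2, against 83 and 88 for acetylated regions and 35 and 31 for unmarked regions. The acetylated regions therefore had about the same lead in each library, and the H3K27ac-lacking regions sat closer to the unmarked ones. In both C57 ATAC libraries, which the rule did not use, the median score of those with a peak was 43 and 45 against 80 and 85 for acetylated regions.

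**Figure D1:**
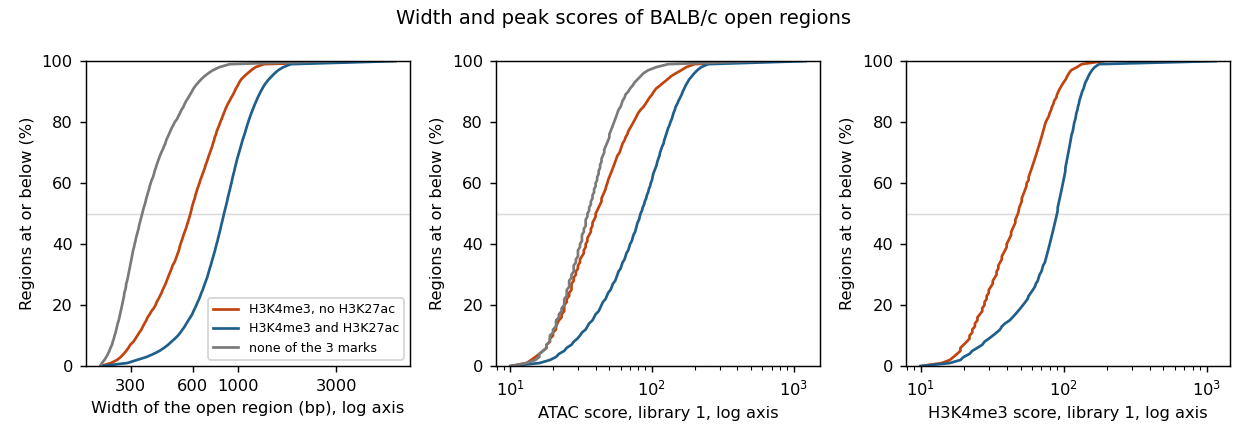
Cumulative share of open regions (%) by width in bp, by ATAC score and by H3K4me3 score (both in BALB/c library 1, log axes), with 1 line per class. The H3K27ac-lacking regions have a median width of 585.5 bp and a median ATAC score of 40, between the acetylated and the unmarked regions.

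The H3K4me3 peaks themselves were narrower and scored lower where H3K27ac was lacking. The median H3K4me3 score was 48 in library 1 and 56 in library 2, against 90 and 105 at acetylated regions. The fold enrichment was closer: 4.57 and 4.71 against 4.73 and 4.72. The joined H3K4me3 region had a median width of 1079 bp, against 1512 bp. H3K4me3 covered the whole open region in the median of both classes, with a lower quartile of 83.0% of the bases for the H3K27ac-lacking and 91.4% for the acetylated regions. Most of the H3K27ac-lacking regions (3054, 92.8%) sat on an H3K4me3 region without H3K27ac along its entire length. The other 236 (7.17%) were on an H3K4me3 region that met H3K27ac outside the open region.

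Seen from the H3K4me3 side, 5785 of 17611 reproducible H3K4me3 regions (32.8%) had no reproducible H3K27ac. An open region lay in 52.7% of these and in 94.95% of the H3K4me3 regions with H3K27ac. The median distance from an H3K27ac-lacking region to the nearest reproducible H3K27ac region was 18737 bp, against 13268 bp for unmarked regions. Within 1000 bp of H3K27ac lay 8.45% of the H3K27ac-lacking and 5.71% of the unmarked regions, while within 100000 bp lay 88.1% and 93.0%. The share of H3K4me3 open regions that lacked H3K27ac ran from 18.8% on chromosome 12 to 25.4% on chromosome X among chromosomes 1 to 19 and X, and chromosome 11 held the most such regions (324).

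Lack of reproducible H3K27ac included regions with a peak in 1 library. Neither BALB/c library had an H3K27ac peak at 2381 of the H3K27ac-lacking regions (72.4%). Library 2 alone had a peak at 710 (21.6%), library 1 alone at 186 (5.65%), and 13 (0.395%) had a peak of each library that did not touch each other. Over all open regions, 8.03% had a peak in at least 1 library and no reproducible region, against 909 of the 3290 (27.6%). The 55.6% of open regions with reproducible H3K27ac cannot count in the first share, so the rule itself widens this difference. Among unmarked regions, which also lack reproducible H3K27ac, the share was 10.8% (746 of 6922). The BALB/c H3K27ac peaks left at the H3K27ac-lacking regions had a median score of 17 in library 1 and 19 in library 2. At unmarked regions, where the same limit holds, the medians were 18 and 17. Acetylated regions, with 37 and 42, were chosen for reproduced peaks, so the rule itself affects the comparison with them. The median fold enrichment was 3.36 and 3.42, against 3.396 and 3.11 at unmarked and 3.84 and 3.81 at acetylated regions.

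Acetylation in C57 cells, which the rule did not use, was far rarer at the H3K27ac-lacking than at the acetylated regions. A reproducible C57 H3K27ac region, that is joined peaks of both C57 libraries, touched 521 of 3290 (15.8%, 95% Wilson interval 14.6 to 17.1), against 88.3% of acetylated and 4.98% of unmarked regions and 48.9% of all open regions. The odds ratio was 0.0249 (95% interval 0.0224 to 0.0278) against the acetylated regions, with a p-value too small for the software to represent (Fisher's exact test, two-sided). Against the unmarked regions it was 3.59 (3.11 to 4.14, adjusted exact p = 8.71e-70). Adjustment was by Benjamini-Hochberg over 19 comparisons, here and for each adjusted p that follows. Across 25 strata of width and ATAC score the common odds ratio was 0.0465 (0.0414 to 0.0523) against acetylated regions. Against unmarked regions it was 1.88 (1.60 to 2.22), smaller than without strata. Because regions do not replicate a condition, the tests hold for these peak lists alone, and the Wilson intervals cover counting error only.

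The C57 libraries differed in how much they called. A joined region can touch an open region with the peak of 1 library alone, so its share can exceed that of a library. C57 library 1, with 14992 H3K27ac peaks, had a peak at 14.1% of the H3K27ac-lacking regions, against 47.0% of all open regions. C57 library 2, with 27527 peaks, had one at 46.8%, against 66.7% of all open regions. At acetylated regions the shares were 86.7% and 98.1%, and at unmarked regions 4.06% and 19.2%. With C57 library 1 left out, the difference from unmarked regions rose from 10.9 to 27.5 percentage points. The C57 peaks at H3K27ac-lacking regions were also of low score, with medians of 20 and 21 against 40 and 59 at acetylated regions.

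Regions with a peak in 1 BALB/c library stood between regions with none and acetylated regions in the C57 lists. C57 library 2 had H3K27ac at 35.2% (33.3 to 37.1) of the 2381 without any BALB/c peak, at 77.6% (74.4 to 80.5) of the 710 with a peak in BALB/c library 2 alone and at 74.7% (68.0 to 80.4) of the 186 with one in library 1 alone. In C57 library 1 the shares were 8.40%, 29.2% and 26.3%. The groups with a peak in BALB/c library 1 alone or 2 alone had overlapping intervals in both C57 libraries. Of the 2381, 247 (10.37%) were touched by a reproducible C57 H3K27ac region.

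**Figure D2:**
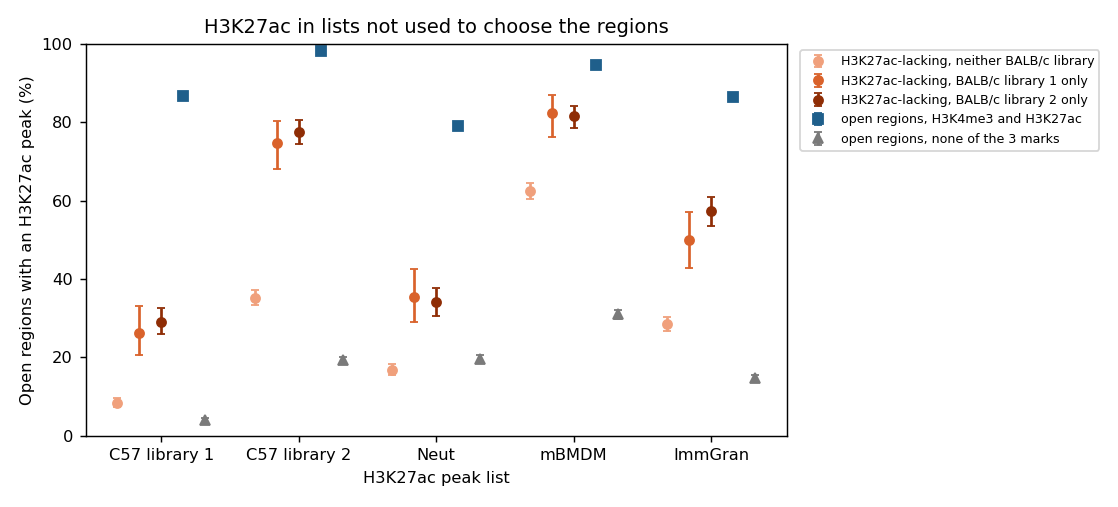
Share of open regions (%) with an H3K27ac peak in 5 lists that the choice of regions did not use. Points are shares with 95% Wilson intervals for H3K27ac-lacking regions by BALB/c H3K27ac peaks and for both comparison classes; mBMDM stands highest of the 5 lists at regions without any BALB/c H3K27ac peak, with 62.5%.

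Among the lists of other cells, mBMDM most often had H3K27ac, at the H3K27ac-lacking regions as in both comparison classes and over all open regions. The mBMDM list had H3K27ac at 2232 of the H3K27ac-lacking regions (67.8%, 66.2 to 69.4), near the 68.6% of all open regions. This lay between 94.7% of acetylated and 31.0% of unmarked regions. The odds ratio was 4.70 (4.29 to 5.13) against unmarked regions (Fisher's exact test, adjusted p = 5.92e-272) and 0.118 (0.105 to 0.131) against acetylated ones. Across strata of width and ATAC score the common odds ratios were nearer to 1, with 2.94 (2.65 to 3.25) and 0.287 (0.255 to 0.324). ImmGran had H3K27ac at 36.1% (34.5 to 37.7), against 54.0% of all open regions, 86.5% of acetylated and 14.6% of unmarked regions. Its odds ratio against the unmarked regions was 3.29 (2.99 to 3.63, adjusted exact p = 5.09e-127), and 2.04 (1.83 to 2.28) across the strata. Neut had H3K27ac at 21.9% (20.5 to 23.3), against 51.4% of all open regions and 79.0% of acetylated regions. The Neut share at unmarked regions was close, 19.5% (odds ratio 1.15, 1.04 to 1.27, adjusted exact p = 0.00764), and this difference did not hold under every setting. It fell to 1.65 percentage points without BALB/c H3K27ac library 1 (adjusted exact p = 0.0708). Without BALB/c ATAC library 1 or 2 it was 3.84 or 4.02 points. Across strata of width and ATAC score it turned round, with a common odds ratio of 0.715 (0.634 to 0.806), as it did when a peak in either BALB/c library counted as H3K27ac (−2.66 points).

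The lists differ in length. The mBMDM H3K27ac list held 59401 peaks, ImmGran 36357 and Neut 21838. With each H3K27ac list limited to its 14992 highest-scoring peaks, the share of H3K27ac-lacking regions was 18.2% in mBMDM, 17.5% in ImmGran and 14.6% in Neut, below the 37.6%, 34.98% and 41.7% of all open regions. At the same length, acetylated regions stood at 68.8%, 63.3% and 68.1%, and unmarked regions at 7.45%, 5.82% and 12.8%. The H3K27ac-lacking regions thus kept a higher share than unmarked regions in each of these lists, while the lead of mBMDM over ImmGran shrank to under 1 percentage point. Their H3K27ac peaks in mBMDM had a median score of 153, against 379 at acetylated regions. In Neut the medians were 68 against 124, and in ImmGran 41 against 60. Of 5 macrophage and monocyte markers, 4 reached at least 1 CPM in both RNA libraries of the eosinophil cultures, as given above, with Marco at 0. The part of such cells in the mBMDM overlap was not tested.

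The combinations of other cells were uneven. mBMDM alone had H3K27ac at 936 of the H3K27ac-lacking regions (28.4%), mBMDM with ImmGran 656 (19.9%), all 3 lists 382 (11.6%) and mBMDM with Neut 258 (7.84%). ImmGran alone had 118, Neut alone 48 and Neut with ImmGran 31. These named combinations were not counted over all open regions or in the comparison classes, so they have no background to be set against. None of the 3 had a peak at 861 (26.2%), near the 24.1% of all open regions, between 2.26% of acetylated and 59.9% of unmarked regions. Exactly 1 list had a peak at 33.5%, against 16.6% of all open regions, and exactly 2 at 28.7%, against 20.6%. The 11.6% with all 3 stood against 38.7% of all open regions. The mBMDM list is the longest and Neut the shortest, and these combinations were not adjusted for list length.

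All 7 H3K27ac lists were then counted (2 of BALB/c, 2 of C57 and 3 of other cells). No H3K27ac peak was found in any of them at 638 H3K27ac-lacking regions (19.4%), against 17.8% of all open regions. The 55.6% of open regions with reproducible BALB/c H3K27ac cannot count in the second share, so the rule itself affects this comparison. Among unmarked regions, which also lack reproducible H3K27ac, the share was 53.8% (3724 of 6922). A peak in exactly 1 list was found at 707, in 2 at 656, in 3 at 539, in 4 at 421, in 5 at 236, in 6 at 89 and in all 7 at 4. The rule leaves out regions with reproducible BALB/c H3K27ac, which limits the higher of these counts. They were not taken over all open regions, so they have no background to be set against. The 638 had a median width of 507.5 bp against 601 bp for the other 2652, and median H3K4me3 scores of 38 and 45 against 51 and 59. BALB/c PU.1 was at 30.4% of the 638 (26.96 to 34.1) and at 60.8% of the 2652. H3K4me1 ran the other way, with 21.0% against 15.0%, and reproducible C57 open chromatin stood at 66.5% against 84.3%. These groups were formed from the H3K27ac lists, and the differences are given without a test.

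PU.1 was much less common at the H3K27ac-lacking than at the acetylated regions. The BALB/c PU.1 library had a peak at 1807 of 3290 (54.9%, 53.2 to 56.6), against 91.8% of acetylated regions and 77.7% of all open regions. The odds ratio against acetylated regions was 0.109 (0.0993 to 0.120), and 0.217 (0.196 to 0.242) across 25 strata of width and ATAC score. Where present, PU.1 peaks had a median score of 95, against 150 at acetylated and 132 at unmarked regions. The median fold enrichment was 5.35, against 6.09 at acetylated and 5.92 at unmarked regions.

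Against unmarked regions, with 56.2%, the PU.1 share did not differ by the test (odds ratio 0.951, 0.875 to 1.03, Fisher's exact test, adjusted p = 0.241). The difference of −1.24 percentage points changed sign when single libraries were left out. It was 0.333 without BALB/c ATAC library 1, 0.922 without ATAC library 2, 0.812 without H3K4me3 library 1, 0.134 without H3K4me1 library 1 and 0.328 without H3K4me1 library 2. Without H3K27ac library 1 it was −3.84 (adjusted exact p = 0.00104). Among regions of like width the H3K27ac-lacking ones had the lower share in all 5 groups of width, cut so that each holds about as many open regions. From the narrowest to the widest group, PU.1 was at 42.9%, 49.5%, 55.5%, 61.2% and 66.6% of them, and at 46.4%, 64.0%, 69.9%, 75.3% and 75.8% of unmarked regions. The Wilson intervals overlapped in the narrowest group (38.4 to 47.6 against 44.8 to 48.0) and in the widest (61.8 to 71.1 against 63.8 to 84.8). The common odds ratio over the strata was 0.547 (0.494 to 0.606). The widest group held 395 H3K27ac-lacking and 62 unmarked regions.

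In each of the 3 other PU.1 lists, too, the share was below that of acetylated regions. Neut had PU.1 at 36.4% of the H3K27ac-lacking regions (34.8 to 38.0), against 71.5% of acetylated, 52.4% of unmarked and 63.6% of all open regions. Its odds ratio against the unmarked regions was 0.519 (0.476 to 0.565, adjusted exact p = 2.34e-52). ImmGran had PU.1 at 26.7% (25.3 to 28.3), against 55.6%, 30.3% and 45.6%, with an odds ratio of 0.838 against unmarked regions (0.764 to 0.920, adjusted exact p = 0.000230). Without BALB/c H3K4me3 library 1, that ImmGran difference shrank from −3.59 to −2.003 percentage points (adjusted exact p = 0.0365).

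mBMDM had PU.1 at 64.5% (62.9 to 66.1), against 88.6% of acetylated, 61.6% of unmarked and 76.5% of all open regions. Its odds ratio against unmarked regions was 1.13 (1.04 to 1.23, adjusted exact p = 0.00570). This lead did not hold. Without BALB/c H3K27ac library 1 it was 0.353 percentage points (adjusted exact p = 0.758). Over the strata of width and score the common odds ratio was 0.794 (0.717 to 0.879), and at 35266 peaks in each PU.1 list the difference was −6.04 points. In lists of that length PU.1 was at 33.4% of the H3K27ac-lacking regions in BALB/c, 17.7% in Neut, 20.7% in mBMDM and 26.7% in ImmGran. Over all open regions these shares were 60.3%, 38.6%, 35.2% and 45.6%, above the H3K27ac-lacking regions in each list.

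**Figure D3:**
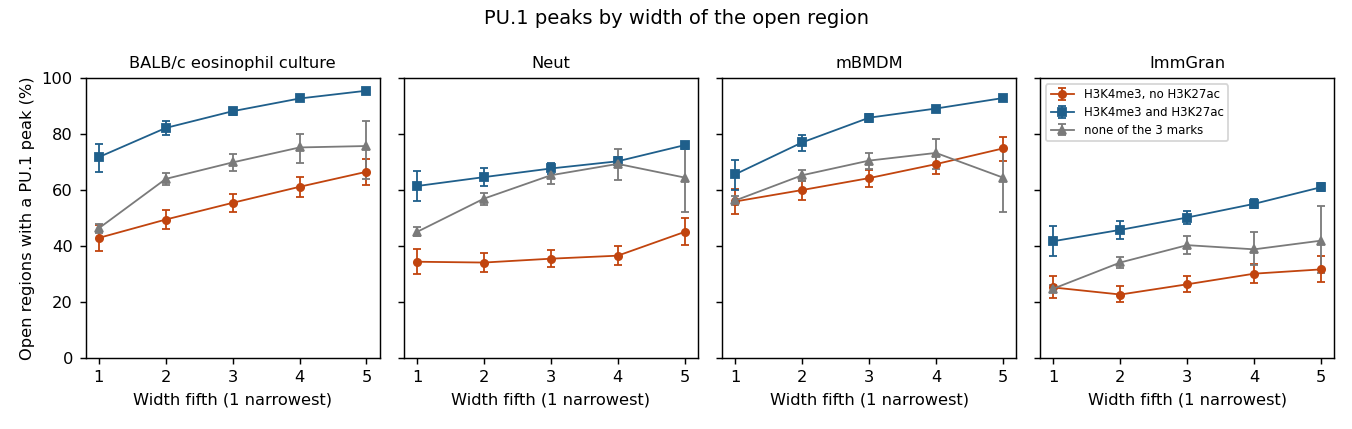
Share of open regions (%) with a PU.1 peak in BALB/c eosinophil cultures, Neut, mBMDM and ImmGran by 5 groups of open region width, with 95% Wilson intervals and 1 line per class. In the BALB/c and Neut lists the H3K27ac-lacking regions lie below both comparison classes in each group. In the BALB/c list they rise from 42.9% to 66.6%, and their intervals overlap those of unmarked regions in the narrowest and widest groups.

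PU.1 occupancy was shared between cells at these regions. Where none of the 3 other lists had PU.1 (1074 regions), BALB/c PU.1 was found at 168, or 15.6% (13.6 to 17.9). With PU.1 in 1 other list the share was 49.6%, with 2 it was 85.3%, and with all 3 it was 97.0% (681 of 702). Acetylated regions began higher: 50.5% of the 1062 without PU.1 in any other list had it in BALB/c cells, and 99.7% of those with all 3. Unmarked regions had it at 17.6%, 38.5%, 76.9% and 97.2% with 0, 1, 2 and 3 other lists, near the H3K27ac-lacking ones at both ends and lower in between. Over all open regions the shares were 30.6%, 63.2%, 89.6% and 99.0%. mBMDM alone among the other lists had PU.1 at 850 of the H3K27ac-lacking regions (25.8%), and 49.4% of these had it in BALB/c cells, near the 49.6% for any 1 other list. Exactly 1 other list had PU.1 at 28.4% of the H3K27ac-lacking and 18.2% of all open regions. The mBMDM PU.1 list is the longest, with 135034 peaks against 100426 in Neut and 35266 in ImmGran. The count for mBMDM alone was not adjusted for list length and was not taken over all open regions.

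Acetylation went with PU.1 of the same cells. In Neut, 43.0% of the H3K27ac-lacking regions with a Neut PU.1 peak had Neut H3K27ac, against 9.75% of those without. In mBMDM the shares were 79.6% and 46.4%, and in ImmGran 55.5% and 29.0%. In BALB/c cells, where the rule leaves peaks of 1 library or of both that do not touch, 37.0% of the 1807 with PU.1 had such a peak, against 16.2% of the 1483 without. Conversely, PU.1 was at 47.8% of regions with no BALB/c H3K27ac peak, at 74.1% of those with one in library 2 alone and at 71.5% of those with one in library 1 alone. H3K27ac was more frequent with PU.1 in the other classes as well: in mBMDM, 97.4% against 74.1% of acetylated and 44.3% against 9.68% of unmarked regions had H3K27ac. Wider regions overlap both kinds of peak more readily, and these shares are not adjusted for width.

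**Figure D4:**
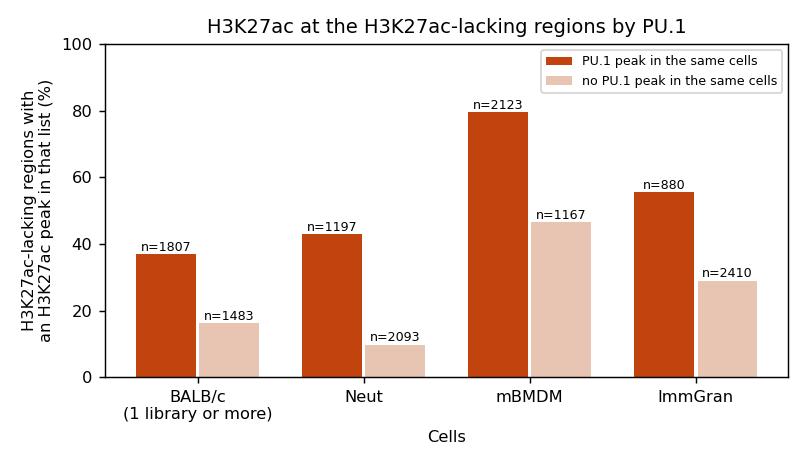
Bars give the share (%) of H3K27ac-lacking regions with an H3K27ac peak in each cell source, for those with and without a PU.1 peak of the same source, with the number of regions above each bar. In BALB/c, where 1 library at most or peaks that do not touch are left by the rule, the shares are 37.0% and 16.2%; in mBMDM they are 79.6% and 46.4%.

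H3K4me1, the enhancer-associated mark, was more frequent at the H3K27ac-lacking than at the acetylated regions. A reproducible H3K4me1 region touched 533 of 3290 (16.2%, 15.0 to 17.5), against 10.3% of acetylated and 20.1% of all open regions (odds ratio 1.68, 1.51 to 1.88, Fisher's exact test, adjusted p = 3.30e-19). Library 1 had a peak at 23.6% of the H3K27ac-lacking regions and library 2 at 23.6%. The difference was 5.89 percentage points with both libraries required, 9.55 without H3K4me1 library 1 and 9.66 without library 2. Where present, H3K4me1 covered a median of 88.4% of the open region, against 50.9% at acetylated regions. The peaks were weak in both classes, with median scores of 18 and 17 at H3K27ac-lacking and of 18 and 17 at acetylated regions. When only peaks with a −log10 q of at least 5 were used, the difference reversed to −2.79 points. Unmarked regions were chosen for having no H3K4me1 and give no comparison.

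Open chromatin was mostly shared with C57 cells. A reproducible C57 ATAC region touched 2660 of the H3K27ac-lacking regions (80.9%, 79.5 to 82.2), against 85.5% of all open regions, 96.1% of acetylated and 70.8% of unmarked regions. The odds ratio was 0.171 (0.151 to 0.195, adjusted exact p = 1.23e-158) against acetylated and 1.74 (1.57 to 1.93, adjusted exact p = 5.44e-28) against unmarked regions. The second difference did not hold among regions of like width and ATAC score, where the common odds ratio was 0.988 (0.873 to 1.12). It grew from 10.0 to 19.8 percentage points without BALB/c ATAC library 1 and to 17.9 without library 2. The difference from acetylated regions went from −15.2 to −9.14 points without C57 ATAC library 1, to −1.76 points when only peaks with a −log10 q of at least 5 were used (adjusted exact p = 0.0140) and to −38.3 in the higher-scoring 50% of the C57 peaks.

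Within the H3K27ac-lacking regions, the shares of some lists moved with the H3K4me3 score and those of others did not. The regions were divided into 5 groups of 658 by the mean H3K4me3 score of the BALB/c libraries, from 11 to 29.5 in the lowest group upward. mBMDM H3K27ac was found at 57.6% of the lowest and 84.0% of the highest group, and C57 library 2 H3K27ac at 39.97% and 66.1%. ImmGran H3K27ac dipped from 36.2% in the lowest to 31.9% in the middle group and was 44.7% in the highest. Neut H3K27ac did not rise, with 29.5% in the lowest and 21.3% in the highest group. H3K4me1 went down, from 22.3% to 9.12%, and so did Neut PU.1, from 50.3% to 30.4%. BALB/c PU.1 was at 61.9% of the lowest group, 48.3% of the middle group and 59.1% of the highest. For mBMDM PU.1 these shares were 66.4%, 62.0% and 66.6%. Median width rose alongside from 499.5 to 704 bp, so score and width are not separated in these shares.

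**Figure D5:**
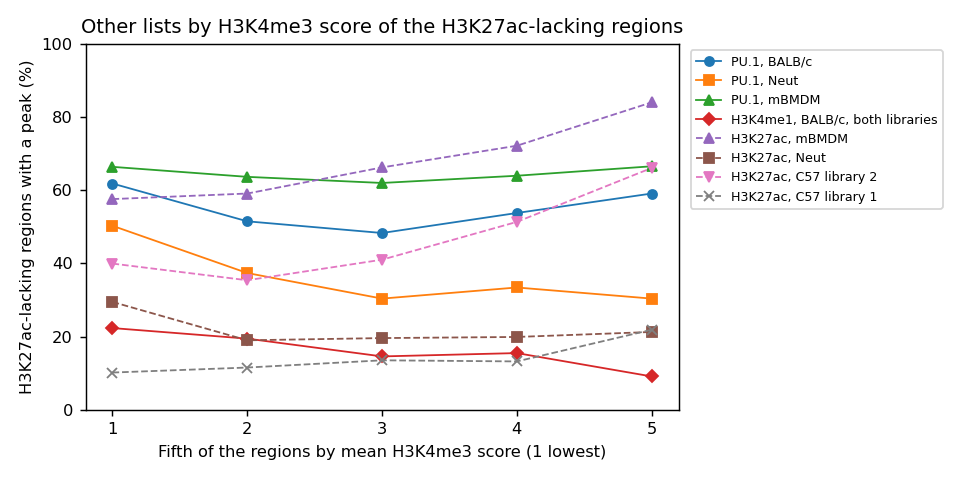
Share of H3K27ac-lacking regions (%) with a peak in 8 lists, by 5 groups of their mean BALB/c H3K4me3 score (658 regions each). H3K27ac in mBMDM rises from 57.6% to 84.0%, H3K27ac in Neut goes from 29.5% to 21.3%, and H3K4me1 falls from 22.3% to 9.12%.

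The strongest open regions of the set show how the lists combine at single sites, given here by mm9 position because gene names of that build were not used. The highest ATAC score was at chr13:113368317-113368594, a region of 278 bp. It had scores of 502 and 429 in the BALB/c ATAC libraries, 105 and 99 for H3K4me3, 62 and 55 for H3K4me1 and 861 for PU.1, with H3K27ac only in BALB/c library 1 (50). In other lists this site had PU.1 in ImmGran (613), Neut (88) and mBMDM (651), and H3K27ac in C57 library 2 (139) and ImmGran (23). Peaks of nearly every assay overlapped this site. The second, chr9:110183687-110183946, was alike in that respect: ATAC 338 and 354, H3K4me3 74 and 50, H3K4me1 30 and 27, PU.1 490, and no BALB/c H3K27ac. Here H3K27ac was found in C57 library 2 (53) and in Neut (51). Another narrow site, chr13:9833496-9833819, scored 281 and 324 for ATAC, 78 and 83 for H3K4me1, 269 for PU.1 and 67 for H3K27ac in BALB/c library 2 alone.

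The remaining top sites combined the lists differently. At chr9:106379174-106379742 the ATAC scores were 293 and 301 and the H3K4me3 scores 49 and 73, with PU.1 at 95. It had no H3K27ac in the BALB/c and C57 libraries and H3K27ac scores of 425 in mBMDM and 44 in Neut, and an H3K27ac region began 754 bp away. At chr7:38869787-38870706 the ATAC scores were 311 and 309 and the H3K4me3 scores 40 and 47, with a weak H3K27ac peak in BALB/c library 2 (14), in C57 library 2 (13) and in ImmGran (23), and a stronger one in mBMDM (192). PU.1 was found there in BALB/c cells (134), Neut (107) and mBMDM (94), and H3K4me1 in library 1 alone (16).

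The widest region, chr1:24618371-24623028, spanned 4658 bp with ATAC scores of 127 and 156. Its H3K4me3 scores were only 21 and 13, and an H3K27ac score of 29 came from BALB/c library 1 alone. The next, on the mitochondrial chromosome from base 1 to 3240, is DNA without nucleosomes, and its scores of 37 and 93 for H3K4me3 and 23 and 40 for H3K27ac, from peaks that do not touch, are printed because the rule took it. With autosomes alone no difference changed its direction or its side of the threshold. The other wide regions, of 1690 to 1909 bp, were chr10:80391363-80393271, chr5:123599727-123601429 and chr1:172994006-172995695. The last had no H3K27ac in any BALB/c, C57 or Neut list, but scores of 51 in ImmGran and 104 in mBMDM and PU.1 scores of 579 in BALB/c cells, 981 in ImmGran, 1108 in Neut and 781 in mBMDM.

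Some regions without reproducible BALB/c H3K27ac had H3K27ac in C57 cells and in all 3 other lists. A reproducible C57 H3K27ac region together with H3K27ac in Neut, mBMDM and ImmGran was found at 142 H3K27ac-lacking regions (4.32%). This combination was not counted over all open regions. There a reproducible C57 region touched 48.9%, and all 3 other lists had H3K27ac at 38.7%. Of the 142, the one with the highest ATAC score was chr5:135164294-135165175, with ATAC scores of 258 and 288 and H3K4me3 scores of 136 and 95. Its H3K27ac score was 19 in BALB/c library 2, with no peak in library 1, against 14 and 26 in C57 cells, 30 in ImmGran, 140 in Neut and 93 in mBMDM. At chr10:4540274-4541182 (ATAC 215 and 241) and chr19:3912366-3913154 (ATAC 179 and 204) no BALB/c H3K27ac peak was found. The C57 H3K27ac scores at these sites were 13 and 26, and 23 and 21. Over all peaks of the C57 lists the median H3K27ac score was 30 and 27, so both sites were below these medians. Neut and mBMDM scored 64 and 188 at the first and 181 and 349 at the second, on lists with medians of 74 and 109, so Neut too was below its median at the first site.

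At the other extreme stood regions with strong H3K4me3 and no H3K27ac peak in any of the 7 lists. At chr2:26494693-26494989 the H3K4me3 scores were 104 and 140 with ATAC scores of 32 and 15, and no PU.1 list had a peak. At chr4:133658320-133658633 the H3K4me3 scores were 107 and 112 with ATAC scores of 131 and 105, again with no PU.1 in any list, and the nearest H3K27ac region was 2768 bp away. At chr5:114223691-114223950 H3K4me3 scored 141 in library 1, while the library 2 peak joined to it did not reach the open region. The nearest H3K27ac region was 45 bp away there, 215 bp at the chromosome 2 site and 140 bp at chr11:120432498-120432756. At chr5:122499814-122500647 the distance was 15360 bp.

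In all, 194 of the 638 regions without any H3K27ac peak had BALB/c PU.1. The highest PU.1 score among them, 493, was at chr14:104873315-104874011, with 428 in ImmGran, 2227 in Neut and 1082 in mBMDM. Its H3K4me3 scores were 14 and 21, its ATAC scores 33 and 24, and the nearest H3K27ac region was 47146 bp away. PU.1 scores of 457 at chr10:77327121-77327514 and 411 at chr19:45303769-45304523 followed, both with PU.1 in the other 3 lists and H3K4me3 scores of 42 and 43 at the first and 46 and 76 at the second.

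The border of the rule is a matter of single bases at some sites. The H3K27ac-lacking region nearest to acetylation, chr7:31017936-31018174 abutted an H3K27ac region, with 0 bp between them. Those at chr8:73062606-73063683 and chr5:98445837-98446227 were 1 and 3 bp away. On the other side, the acetylated regions chr9:8900214-8900750, chr2:152496757-152497042 and chr11:114795532-114795837 shared 1, 2 and 3 bp with an H3K27ac region. The H3K4me3 scores just outside the rule (34 and 42, 122 and 119, and 86 and 63) overlapped those just inside (84 and 109, 128 and 82, and 22 and 22).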

How the data were processed

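Per the labels' protocols, ATAC libraries were made by Omni-ATAC and ChIP libraries by ChIPmentation, in which a transposase cuts the immunoprecipitated chromatin. The authors deposited 1 peak list per library, with a score, a fold enrichment (a ratio) and a −log10 q per peak, all their own values; the lowest −log10 q is about 1 in histone, ATAC and mBMDM PU.1 lists and about 2 in the other PU.1 lists. The submitters' processing notes name Bowtie2 2.3.4.1, bedtools 2.27.0, STAR 2.5 and mm9; the peak caller is not given in the sources used here. The authors' deposited RNA tables hold read counts, divided here by their totals. Count tables of 2 other samples were not used.

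Peaks sharing at least 1 bp were joined, and a region was reproducible when both libraries had a peak in it; merging also joined overlapping peaks in the Neut and ImmGran PU.1 lists (905 and 198). The highest overlapping peak gave a region's score. Shares of regions with a peak were compared by a two-sided Fisher's exact test, adjusted by Benjamini-Hochberg over 19 comparisons (threshold 0.05), with Wilson intervals at 95% and Mantel-Haenszel odds ratios over 25 strata (Python 3.11.15, scipy 1.17.1, statsmodels 0.14.6). The steps were tested on simulated lists. Alternatives were an overlap of 50 bp or 50%, no H3K27ac in either library, a −log10 q of at least 5, shorter lists, autosomes alone, and 12 libraries left out in turn. Sites named were the 5 with the highest ATAC score, the 5 widest, those with the highest H3K4me3 or PU.1 score without H3K27ac in any list, those acetylated in all other cells, and those nearest to either side of the rule. Regions, comparison classes and lists were chosen with earlier results of these data known. Sequences and gene names of the mm9 build were not used here.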

Additional observations from a re-analysis of the deposited data

Results flagged for a closer look

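PU.1 at H3K27ac-lacking regions, set against unmarked open regions, ran in opposite directions in different cells: the share was 2.88 percentage points higher in mBMDM, and −16.1 points in Neut and −3.59 points in ImmGran. Whether these differences differ from each other was not tested, since each comes from 1 list. The mBMDM list is also the longest, with 135034 PU.1 peaks against 100426 in Neut and 35266 in ImmGran, and at equal length its difference was −6.04 points.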

How the results depend on the processing

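Of 320 alternative values for 20 results, 296 kept their direction and side of the threshold, and each comparison with acetylated regions did so except H3K4me1. The number of H3K27ac-lacking regions rose from 3290 to 5514 at a −log10 q of at least 5, where fewer H3K27ac peaks remain; there H3K4me1 against acetylated regions was −2.79 points and PU.1 in BALB/c against unmarked regions 5.72 points, and H3K27ac in Neut against unmarked regions 21.2 points. PU.1 in BALB/c against unmarked regions was −10.1 points at 50% overlap, −8.37 with no H3K27ac in either library, −7.36 in the higher-scoring 50% of peaks, −5.89 at equal list length and 0.547 as a common odds ratio; with single libraries left out it ran from −3.84 to 0.922. PU.1 in mBMDM against unmarked regions was −14.6, −1.92, −2.67 and −6.04 points in the same settings and 0.794 as an odds ratio; with libraries left out it ran from 0.353 to 4.101. H3K27ac in Neut against unmarked regions was −2.66 points with no H3K27ac in either library and 0.715 as an odds ratio, and ran from 1.65 to 4.02 with libraries left out. Open chromatin in C57 against unmarked regions had a common odds ratio of 0.988. Directions that held could still change in size: against acetylated regions, PU.1 in ImmGran went from −28.8 to −3.10 points at 50% overlap, H3K27ac in mBMDM from −26.9 to −3.03, PU.1 in BALB/c from −36.8 to −11.7 and C57 open chromatin from −15.2 to −1.76 at a −log10 q of at least 5, and H3K27ac in C57 against unmarked regions from 10.9 to 1.88 in the higher-scoring 50% of peaks. The causes were not tested. No paired analysis was possible because the results are overlaps of peak lists and not fits over samples. The depth behind the peaks is unknown, so an absent peak means only that none was called.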
